A study of Homo sapiens with 27 samples.

Results

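The ATP-binding cassette (ABC) family was followed at the level of mRNA in 3 human colorectal cancer (CRC) cell lines and in their drug-resistant derivatives. Members were the rows whose gene symbol joins ABC, a subfamily letter from A to G and a number. This gave 46 members among the 26255 gene symbols of each table. In all, 52 symbols begin with ABC, and the 6 others were not taken as members. HCT116, SW480 and DLD-1 are established epithelial lines from colorectal tumours. Each line was sequenced as cells resistant to 5-fluorouracil (5-FU res), cells resistant to oxaliplatin (OX res) and untreated parental cells (WT), with 3 libraries per group and 27 libraries in all. According to the labels, all 3 lines were kept for about 6 months under non-lethal drug, 5 to 70 µM 5-FU or 5 to 35 µM OX. The methods of the study describe stepwise selection and passaging for HCT116 and SW480 only. No source says that replicate libraries were separate cultures, so p-values measure only how far these libraries scatter, which may be technical. It is also not given whether a resistant derivative was a single clone or whether drug was present at harvest.

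ABC proteins bind and hydrolyse ATP in paired nucleotide-binding domains, and most of them use that energy to carry a substrate across a membrane. The family holds the classical multidrug efflux pumps, P-glycoprotein (ABCB1), the multidrug resistance-associated proteins of subfamily C and the breast cancer resistance protein (ABCG2), which in the gut epithelium return drugs and drug conjugates to the lumen or pass them to the blood. Other members export cholesterol and phospholipid, move substrates of mitochondria, peroxisomes and lysosomes, or gate potassium channels. Subfamilies E and F have the ATP-binding domains without a membrane part and act in translation and ribosome recycling.

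Levels are given as TPM, the FPKM of a gene divided by the FPKM sum of its library, scaled so that each library sums to 1e6. A member was reported in a line when it had at least 1 TPM in at least 3 of the 9 libraries of that line. By this rule 29 of 46 members were reported in HCT116, 28 in SW480 and 27 in DLD-1. In total, 31 were reported in at least 1 line, 24 in all 3 lines and 15 in none. The 15 included ABCB5, ABCC11 and ABCC12 among the efflux genes, the bile salt pump ABCB11 and the sterol half-transporters ABCG5 and ABCG8. ABCC13, which the reference annotation lists as a non-coding RNA, was at 0 in all 27 libraries. In each line 1 reported member reached 1 TPM in the libraries of 1 resistant group alone. These were ABCB1 in HCT116 (OX res), ABCA1 in SW480 (5-FU res) and ABCC2 in DLD-1 (5-FU res). ABCC6 in HCT116 (OX res), ABCG1 in SW480 (5-FU res) and ABCA5 in DLD-1 (OX res) would also have failed the rule without the resistant group named.

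Changes are log2 fold changes on the log2(TPM + 1) scale with the standard error (SE) of the fit, which understates the change of genes at low levels. A gene was called changed when its adjusted p was under 0.05 and its log2 fold change was beyond 1. The number of reads per library is not given, and the low FPKM values place the depths of the 27 libraries within 0.721 to 1.131 times that of HCT116 WT library 1. The keratins KRT8, KRT18 and KRT19 of epithelium had at least 425 TPM in every library, while KRT20 ranged from 0 to 10.6 TPM, and the summed level of the 10 epithelial markers ranged from 5703 to 21030 TPM over all libraries, with CDX1, VIL1 and CDH17 each at 0 in at least 1 group. The 8 fibroblast markers summed to between 0.425 and 17.9 TPM, the 4 endothelial markers to between 0.101 and 2.09 TPM and the 6 leukocyte markers to between 4.31 and 71.1 TPM. The leukocyte markers PTPRC and CD3E and the fibroblast markers DCN, LUM and COL1A2 averaged under 1 TPM in every group. Other genes of these lists did not. COL1A1 averaged 6.58 TPM in HCT116 WT and 16.2 TPM in HCT116 OX res cells. In SW480 5-FU res cells COL1A1 averaged 2.84 TPM, PDGFRB 1.93 TPM, LYZ 6.61 TPM and CD14 4.47 TPM. The leukocyte sum, mostly CD68, was 58.2 to 71.1 TPM in HCT116 OX res, against 18.1 to 19.2 TPM in HCT116 WT libraries, and in SW480 it was 28.9 to 32.4 TPM (5-FU res) and 24.2 to 28.5 TPM (OX res), against 8.45 to 9.78 TPM (WT). The epithelial adhesion genes EPCAM and CDH1 were lower in these groups. EPCAM had 65.6 to 70.7 TPM in HCT116 OX res, against 377 to 408 TPM in HCT116 WT, and in SW480 it averaged 105 TPM (5-FU res) and 221 TPM (OX res), against 323 TPM (WT). CDH1 averaged 3.64 TPM in HCT116 OX res, against 29.0 TPM in HCT116 WT, and in SW480 it averaged 3.12 TPM (5-FU res) and 3.03 TPM (OX res), against 16.9 TPM (WT). The part of these markers in the results was not tested. DLD-1 library names belong to another numbered run than those of HCT116 and SW480, so line and library run cannot be told apart.

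The WT cells of the 3 lines differed in the level of ABC mRNA. Summed over the whole family, with the members that carry no substrate included, WT cells had 903 ± 17.9 TPM in DLD-1, 564 ± 12.2 TPM in HCT116 and 508 ± 51.2 TPM in SW480 (mean ± SD, n = 3 here and below). The 12 efflux genes summed to 229 to 240.4 TPM in DLD-1 WT, 106 to 113 TPM in HCT116 WT and 82.4 to 108 TPM in SW480 WT libraries, and the sums of HCT116 and SW480 overlapped. ABCB1 averaged 47.1 ± 0.284 TPM in DLD-1 WT, 0.753 ± 0.0591 TPM in HCT116 WT and 1.75 ± 0.572 TPM in SW480 WT, and no DLD-1 library overlapped those of the other lines. ABCC2, the pump of the apical membrane that exports bilirubin glucuronide and glutathione conjugates, had another order, with 0.599 ± 0.114 TPM in DLD-1 WT, 24.2 ± 0.504 TPM in HCT116 WT and 0.0571 ± 0.0140 TPM in SW480 WT. Within DLD-1 WT cells the pumps ranked ABCC3 (49.4 ± 3.67 TPM), ABCB1, ABCC5 (44.0 ± 1.04 TPM), ABCC4 (40.4 ± 0.858 TPM), ABCC1 (37.4 ± 0.898 TPM) and ABCC10 (11.6 ± 0.556 TPM), and the libraries of ABCC3 and ABCB1 overlapped. In HCT116 WT cells ABCC1 led with 33.8 ± 0.946 TPM, followed by ABCC2. Next came ABCC10, ABCC4, ABCC5 and ABCC3, between 10.5 and 13.4 TPM in single libraries, which overlapped from 1 neighbour to the next. In SW480 WT cells ABCC5 (28.5 ± 4.43 TPM) and ABCC1 (25.5 ± 3.55 TPM) led with overlapping libraries, and ABCC3 followed at 18.9 ± 1.45 TPM.

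Between WT lines, limma on all 27 libraries tested all 31 members reported in at least 1 line. DLD-1 WT against HCT116 WT gave 11 members higher and 3 lower, against 24.9% of the 15801 genes tested higher and 9.68% lower. Scaling by median of ratios instead of TPM made this 7 higher and 4 lower, and the shares of all genes under that scaling were not counted. DLD-1 WT against SW480 WT gave 13 higher and 4 lower (all genes 25% and 10.9%), and HCT116 WT against SW480 WT gave 5 and 5 (all genes 12.4% and 12.6%). The share of members called higher was furthest above that of all genes for DLD-1 WT against SW480 WT. ABCB1 had a log2 fold change of 4.78 ± 0.12 (SE, adjusted p = 2.5e-20) for DLD-1 WT against HCT116 WT and a log2 fold change of 4.15 ± 0.12 (SE, adjusted p = 3.4e-19) for DLD-1 WT against SW480 WT. ABCB6, a porphyrin-linked half-transporter, was lower in DLD-1 WT than in HCT116 WT by a log2 fold change of -2.77 and than in SW480 WT by -2.61.

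Across the 6 comparisons of resistant with WT cells, 33 changes were called in 18 members, and 13 reported members were called in none. HCT116 5-FU res cells had 5 members higher and 1 lower of 29 tested, beside 11.6% and 3.82% of the 14010 genes tested in that line. HCT116 OX res cells had 8 higher and 1 lower, beside 28.5% and 4.83% of all genes. SW480 5-FU res cells had 11 higher and 0 lower of 28 tested, beside 18.3% and 2.85% of 14039 genes. SW480 OX res cells had 7 higher and 0 lower, beside 13.7% and 1.22% of all genes. With limma 22 of 28 members passed an unadjusted p of 0.05 in each of these SW480 comparisons. Shares of all genes at an unadjusted p were not counted, here or below, so such counts cannot be set beside them. At the main thresholds the share of members called higher was nearest to that of all genes in HCT116 OX res cells, slightly under it. It was furthest above that of all genes in SW480 5-FU res cells. The 2 comparisons of a line share their WT libraries, so their counts are not independent. Some members were reported only because of resistant libraries, so that their counts lean on the filter. Counting only members with at least 1 TPM in all 3 WT libraries of the line, a restriction chosen after the values were seen, left 3 higher and 1 lower of 22 (5-FU res) and 4 higher and 1 lower of 22 (OX res) in HCT116, and 7 higher of 24 (5-FU res) and 5 higher of 24 (OX res) in SW480. The members left out were ABCA1, ABCA5, ABCA12, ABCB1, ABCC6, ABCC9 and ABCG2 in HCT116, ABCA1, ABCA3, ABCG1 and ABCG2 in SW480, and ABCA5 and ABCC2 in DLD-1. Shares of all genes were not counted under this restriction, here or below, so the restricted counts cannot be set beside them.

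At an adjusted p under 0.05 with no threshold on the fold, 12 members were higher and 12 lower in HCT116 5-FU res cells (all genes 47.3% and 27.5%). By the same rule 21 were higher and 5 lower in HCT116 OX res cells (all genes 68.1% and 18.1%). In SW480 20 were higher and 2 lower in either comparison, where all genes gave 61.7% and 15.6% (5-FU res) and 57.4% and 14.5% (OX res).

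**Figure D1:**
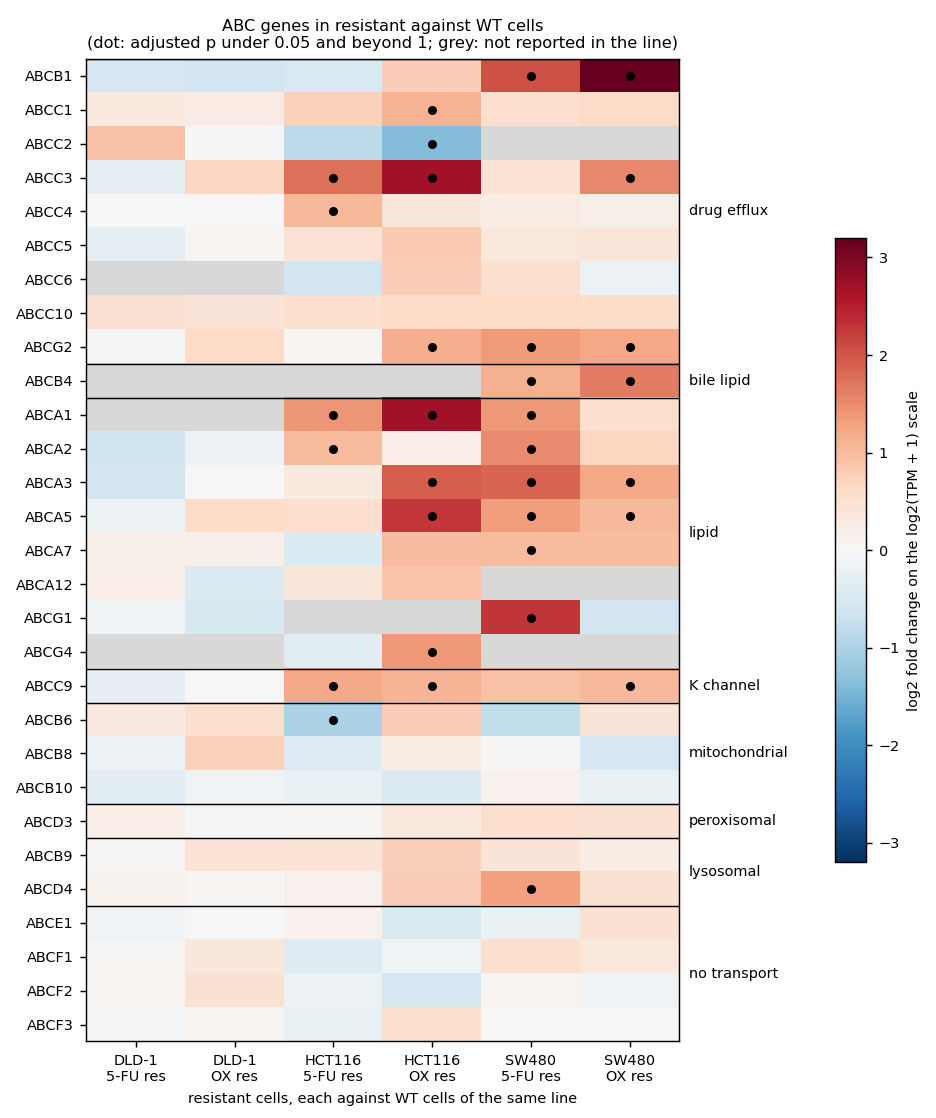
Log2 fold change of 29 reported members (rows, grouped by role) in 5-FU res and OX res cells against WT cells of the same line (columns), on the log2(TPM + 1) scale. Dots mark 32 called changes, and grey marks members not reported in a line. No dot stands in the DLD-1 columns, and the row of ABCB1 holds the strongest red, in SW480 OX res cells.

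No member was called in DLD-1, in 5-FU res cells (0 of 27, beside 2.12% of 13467 genes higher and 1.76% lower) or in OX res cells (0 of 27, beside 2.7% and 0.913%). With limma at an unadjusted p under 0.05, 14 members passed in 5-FU res cells and 15 in OX res cells, but none of them beyond the fold threshold. At an adjusted p under 0.05 without the threshold, 5 members were on the higher and 7 on the lower side in 5-FU res cells, and 10 and 3 in OX res cells, where all genes gave 20.5% and 25.9%, and 38.7% and 11.2%. Changes of the members in DLD-1 lay between -0.65 for ABCA2 and 0.93 for ABCC2 in 5-FU res cells, and between -0.61 for ABCB1 and 0.74 for ABCB8 in OX res cells. With a pseudocount of 0.1 TPM, 1 member, ABCC2, was called in DLD-1 5-FU res cells, at 1.63.

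The median gene itself moved against WT on the TPM scale, by a log2 fold change of 0.18 (5-FU res) and 0.60 (OX res) in HCT116, of 0.44 (5-FU res) and 0.36 (OX res) in SW480 and of -0.03 (5-FU res) and 0.13 (OX res) in DLD-1. The median member had 0.07 (5-FU res) and 0.79 (OX res) in HCT116, 0.53 (5-FU res) and 0.50 (OX res) in SW480 and -0.05 (5-FU res) and 0.05 (OX res) in DLD-1. Changes relative to the median gene are therefore given beside the main ones where they matter. Scaling the libraries by median of ratios changed the split of called members in HCT116 to 3 higher and 2 lower (5-FU res) and 4 higher and 4 lower (OX res), and in SW480 to 6 higher and 1 lower (5-FU res) and 4 higher and 0 lower (OX res). With the FPKM as deposited the splits were 2 and 2 (5-FU res) and 4 and 2 (OX res) in HCT116, and 4 and 1 (5-FU res) and 3 and 0 (OX res) in SW480. With quantile normalization they were 2 and 2 (5-FU res) and 4 and 2 (OX res) in HCT116, and 5 and 1 (5-FU res) and 4 and 1 (OX res) in SW480. Of the 33 changes, 14 kept their call under all 3 of these scalings and none changed sign. Shares of all genes were not counted under these scalings, here or below, so the splits cannot be set beside them.

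ABCB1 encodes P-glycoprotein, an apical pump for bulky hydrophobic drugs. In SW480, ABCB1 stood at 9.49, 11.2 and 9.85 TPM in 5-FU res cells and 23.4, 23.7 and 24.4 TPM in OX res cells, against 2.34, 1.20 and 1.70 TPM in WT cells. Every resistant library was above every WT library, and every OX res library above every 5-FU res library. ABCB1 rose in SW480 OX res cells by a log2 fold change of 3.20 ± 0.14 (SE, adjusted p = 3.2e-08), or 2.83 relative to the median gene. It rose in SW480 5-FU res cells by a log2 fold change of 2.04 ± 0.14 (SE, adjusted p = 2.8e-07), or 1.60 relative to the median gene. In HCT116, ABCB1 was near the detection floor, with 0.305, 0.306 and 0.153 TPM in 5-FU res cells and 1.61, 1.84 and 2.73 TPM in OX res cells, against 0.769, 0.688 and 0.803 TPM in WT cells. There the groups did not overlap, but neither difference from WT reached the fold threshold, at log2 fold changes of -0.48 and 0.79. With a pseudocount of 0.1 TPM both passed it, at -1.30 in 5-FU res cells and 1.31 in OX res cells. In DLD-1, where ABCB1 was highest, it had 33.8, 34.1 and 29.3 TPM in 5-FU res cells and 29.8, 31.2 and 30.5 TPM in OX res cells, against 47.0, 47.5 and 46.9 TPM in WT cells. All 6 resistant libraries of DLD-1 lay under the 3 WT libraries, with log2 fold changes of -0.53 in 5-FU res cells and -0.61 in OX res cells, under the fold threshold. The level of SW480 OX res cells thus stayed under that of each DLD-1 group.

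The 5-FU res change of ABCB1 in HCT116 minus that in SW480 was -2.53 (adjusted p = 1.4e-11), and that in DLD-1 minus that in SW480 was -2.57 (adjusted p = 1e-11). For OX res cells the difference was -2.41 (adjusted p = 3.2e-11) for HCT116 minus SW480, -1.40 (adjusted p = 1.7e-07) for DLD-1 minus HCT116 and -3.81 (adjusted p = 3.4e-14) for DLD-1 minus SW480. Each of these differences passed the same thresholds in the fit of all 27 libraries. Because ABCB1 was reported in HCT116 only through its OX res libraries, the differences that involve HCT116 are given as a description.

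ABCB1 lies on chromosome 7 at 87132333 to 87342639 on the minus strand (GRCh37), next to ABCB4 at 87031012 to 87109751 on the same strand. ABCB4 flips phosphatidylcholine into bile in the liver and is the closest relative of ABCB1 in sequence, so reads shared by both genes may have been split between them. In SW480, ABCB4 had 6.27, 6.87 and 6.86 TPM in 5-FU res cells and 8.91, 10.5 and 10.2 TPM in OX res cells, against 2.88, 2.20 and 2.43 TPM in WT cells, with no overlap between resistant and WT libraries. ABCB4 rose in SW480 5-FU res cells by a log2 fold change of 1.13 ± 0.11 (SE, adjusted p = 3.6e-06) and in OX res cells by a log2 fold change of 1.64 ± 0.11 (SE, adjusted p = 5.7e-07). The 5-FU res call was lost under each of the 3 other scalings, and the OX res call was kept. ABCB4 was not reported in HCT116, where it was at most 0.0395 TPM in any library, or in DLD-1, where single libraries ranged from 0.0892 to 1.09 TPM. Of the other genes within 500 kb of ABCB1, a window chosen after their values were seen, CROT beside ABCB4 had log2 fold changes of 0.17 and 0.23 in SW480 5-FU res and OX res cells, and TMEM243 had -0.06 and -0.36. In all, 6 of the 11 other genes tested in this window were called in neither SW480 comparison, a share that was not counted over all genes. Of all genes tested in SW480, 18.3% were called higher and 2.85% lower in 5-FU res cells. In OX res cells these shares were 13.7% and 1.22%. KIAA1324L and DMTF1 rose in both, by 1.34 and 1.03 in 5-FU res cells and by 1.47 and 1.21 in OX res cells. RUNDC3B, which overlaps ABCB1 on the plus strand, rose by 1.11 in OX res cells and had 0.15 in 5-FU res cells. ADAM22 rose by 1.27 in SW480 OX res cells and had 0.05 in 5-FU res cells. In HCT116, where ABCB1 was not called, KIAA1324L and DMTF1 rose too, by 1.06 and 1.17 in 5-FU res cells and by 1.76 and 1.04 in OX res cells, and DBF4 fell in OX res cells by -1.24. The library kit keeps strand, but whether the counting used it is not given.

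RefSeq gives a pair of promoter windows for ABCB1. They are shown with those of ABCA1 and ABCC2 as examples. The rises of ABCB1 in SW480 and of ABCA1 in HCT116 and the fall of ABCC2 in HCT116 OX res cells were kept under all scalings. Calls of ABCA3, ABCA5, ABCG1 and ABCB6 were kept under them too, but no windows of these genes are shown. Windows were found for 35 of 46 members, and none for ABCC3 and ABCB4. Each sequence is the 250 bases before an annotated start, 5′ to 3′ on the strand of the gene in GRCh38.p14. Capitals mark matches on either strand to the GC box GGGCGG, the CCAAT box CCAAT, the TATA box TATAAA, the E-box CACGTG, the antioxidant response element core TGACNNNGC or a direct repeat of the nuclear receptor half-site AGGTCA with a spacer of 4 bases. The GC box, CCAAT box, TATA box, E-box, antioxidant core and direct repeat occur in 42.6%, 32%, 10.7%, 6.34%, 10.9% and 0.0142% of all 35116 windows of this length.
ABCB1 downstream start, chr7:87600885-87601134, minus strand: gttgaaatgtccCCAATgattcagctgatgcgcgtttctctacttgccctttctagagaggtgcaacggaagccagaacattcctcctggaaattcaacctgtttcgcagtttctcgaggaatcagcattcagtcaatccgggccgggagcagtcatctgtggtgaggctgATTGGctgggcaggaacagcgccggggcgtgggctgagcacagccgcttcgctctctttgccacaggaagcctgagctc
ABCB1 upstream start, chr7:87713296-87713545, minus strand: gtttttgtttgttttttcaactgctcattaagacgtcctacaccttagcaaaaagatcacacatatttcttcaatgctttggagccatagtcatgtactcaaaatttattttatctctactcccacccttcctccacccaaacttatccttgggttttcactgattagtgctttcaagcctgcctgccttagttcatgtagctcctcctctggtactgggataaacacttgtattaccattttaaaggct
ABCA1, chr9:104928156-104928405, minus strand: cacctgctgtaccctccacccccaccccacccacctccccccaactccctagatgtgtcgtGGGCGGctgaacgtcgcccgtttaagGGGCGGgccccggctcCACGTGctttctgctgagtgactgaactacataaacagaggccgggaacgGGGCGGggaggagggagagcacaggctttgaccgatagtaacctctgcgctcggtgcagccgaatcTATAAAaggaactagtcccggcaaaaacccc
ABCC2, chr10:99782390-99782639, plus strand: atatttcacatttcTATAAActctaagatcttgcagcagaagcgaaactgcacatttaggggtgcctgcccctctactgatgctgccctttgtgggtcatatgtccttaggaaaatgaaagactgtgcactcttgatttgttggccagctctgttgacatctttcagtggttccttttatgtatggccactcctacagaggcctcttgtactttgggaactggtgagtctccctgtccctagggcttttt
The downstream ABCB1 window holds 2 CCAAT boxes, one of them inverted, and the upstream one no match. The ABCA1 window holds 3 GC boxes, 1 E-box and 1 TATA box, and the ABCC2 window 1 TATA box. None of the windows shown matched the antioxidant core or the direct repeat. Only the exact letters given were searched, so repeats whose half-sites differ from AGGTCA would be missed. The tables give 1 value per gene, so which ABCB1 start was used in SW480 was not measured.

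ABCC3 encodes MRP3, a basolateral pump for glucuronide conjugates and bile acids that is normally abundant in colon. In HCT116, ABCC3 had 43.7, 38.4 and 40.6 TPM in 5-FU res cells and 76.4, 71.4 and 90.4 TPM in OX res cells, against 10.5, 12.0 and 11.7 TPM in WT cells, 3 separate levels. ABCC3 rose in HCT116 5-FU res cells by a log2 fold change of 1.76 ± 0.09 (SE, adjusted p = 1e-08), and in OX res cells by a log2 fold change of 2.69 ± 0.09 (SE, adjusted p = 9e-11), or by 1.57 and 2.09 relative to the median gene. In SW480, ABCC3 had 25.0, 25.2 and 27.1 TPM in 5-FU res cells and 54.7, 56.2 and 57.7 TPM in OX res cells, against 19.5, 17.2 and 19.9 TPM in WT cells. It rose in SW480 OX res cells by a log2 fold change of 1.53 ± 0.07 (SE, adjusted p = 5.1e-08), and its log2 fold change of 0.43 in 5-FU res cells was under the threshold although no library overlapped WT. In DLD-1, ABCC3 had 39.0, 41.6 and 38.8 TPM in 5-FU res cells and 74.5, 87.7 and 74.2 TPM in OX res cells, against 46.6, 53.5 and 48.0 TPM in WT cells, which placed the OX res libraries highest here too, at a log2 fold change of 0.66 that was not called. ABCC3 was the only efflux pump whose OX res libraries all lay above those of 5-FU res and WT in each of the 3 lines.

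The ABCC3 change of 5-FU res cells in HCT116 minus that in SW480 was 1.32 (adjusted p = 1.1e-09), and in DLD-1 minus HCT116 it was -2.06 (adjusted p = 1.1e-12). For OX res cells these differences were 1.16 (adjusted p = 9.2e-09) and -2.03 (adjusted p = 4.8e-13).

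ABCC2 encodes MRP2, the apical counterpart for conjugates. In HCT116, ABCC2 had 13.8, 12.0 and 13.4 TPM in 5-FU res cells and 8.40, 7.72 and 9.71 TPM in OX res cells, against 23.6, 24.5 and 24.6 TPM in WT cells, with the groups in 3 separate ranges. It fell in HCT116 OX res cells by a log2 fold change of -1.40 ± 0.09 (SE, adjusted p = 2e-08), or -1.99 relative to the median gene. In 5-FU res cells its log2 fold change was -0.84, or -1.02 relative to the median gene, and it passed the threshold at -1.02 with the FPKM as deposited, -1.10 with median of ratios and -1.08 with quantile normalization. In DLD-1, ABCC2 was low, with 1.92, 2.28 and 1.93 TPM in 5-FU res cells and 0.488, 0.516 and 0.618 TPM in OX res cells, against 0.517, 0.551 and 0.730 TPM in WT cells, and the 5-FU res libraries alone passed 1 TPM. Its log2 fold change in DLD-1 5-FU res cells, 0.93, was just under the threshold. In SW480, ABCC2 was not reported and ranged from 0.0412 to 0.270 TPM. The ABCC2 change in DLD-1 minus that in HCT116 was 1.77 (adjusted p = 2.5e-11) for 5-FU res and 1.34 (adjusted p = 1.1e-09) for OX res cells, and the OX res change in HCT116 minus that in SW480 was -1.62 (adjusted p = 6.7e-11). At its SW480 levels ABCC2 could hardly fall, so the last difference mostly gives the HCT116 change.

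ABCG2 encodes the breast cancer resistance protein, an apical half-transporter that works as a dimer and marks side-population cells. In SW480, ABCG2 had 1.54, 2.19 and 1.46 TPM in 5-FU res cells and 1.14, 1.45 and 1.97 TPM in OX res cells, against 0.0771, 0.0510 and 0.0580 TPM in WT cells, so that all 6 resistant libraries passed 1 TPM and no WT library was above 0.0771 TPM. ABCG2 rose in SW480 5-FU res cells by a log2 fold change of 1.35 ± 0.15 (SE, adjusted p = 1e-05), and in OX res cells by a log2 fold change of 1.23 ± 0.15 (SE, adjusted p = 3.1e-05). Both calls were lost with the FPKM as deposited. ABCG2 was reported in SW480 only through resistant libraries, so these changes lean on the filter and are given as a description. In HCT116, ABCG2 had 1.20, 0.949 and 1.04 TPM in 5-FU res cells and 3.47, 3.75 and 3.01 TPM in OX res cells, against 0.926, 1.11 and 0.856 TPM in WT cells, and only the OX res libraries stood apart. The rise in HCT116 OX res cells, a log2 fold change of 1.16 ± 0.12 (SE, adjusted p = 1.3e-06), was 0.57 relative to the median gene and was lost under all 3 other scalings. In DLD-1, ABCG2 had 1.56, 2.04 and 1.37 TPM in 5-FU res cells and 3.78, 3.14 and 2.95 TPM in OX res cells, against 2.02, 1.65 and 1.63 TPM in WT cells, with a log2 fold change of 0.63 in OX res cells that was not called. The 5-FU res change of ABCG2 in HCT116 minus that in SW480 was -1.28 (adjusted p = 1e-06), and in DLD-1 minus SW480 it was -1.41 (adjusted p = 2.1e-07).

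ABCC1 encodes MRP1, a basolateral pump for glutathione conjugates. In HCT116, ABCC1 had 59.7, 53.0 and 57.8 TPM in 5-FU res cells and 72.5, 68.0 and 84.9 TPM in OX res cells, against 33.8, 32.9 and 34.8 TPM in WT cells. It rose in HCT116 OX res cells by a log2 fold change of 1.12 ± 0.08 (SE, adjusted p = 4.3e-08), which was 0.53 relative to the median gene and was lost under all 3 other scalings and after removal of the length trend. In SW480, ABCC1 had 37.5, 37.7 and 36.8 TPM in 5-FU res cells and 37.8, 41.2 and 39.4 TPM in OX res cells, against 27.8, 21.4 and 27.3 TPM in WT cells. In DLD-1, ABCC1 had 45.7, 49.7 and 43.7 TPM in 5-FU res cells and 44.8, 46.8 and 43.2 TPM in OX res cells, against 37.0, 38.4 and 36.8 TPM in WT cells. In each line both resistant groups lay wholly above WT, and apart from HCT116 OX res cells the log2 fold changes lay between 0.26 and 0.73.

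ABCC4 encodes MRP4, which exports cyclic nucleotides and nucleoside monophosphate analogues. In HCT116, ABCC4 had 26.1, 24.4 and 26.1 TPM in 5-FU res cells and 15.1, 14.6 and 17.3 TPM in OX res cells, against 11.5, 11.6 and 12.8 TPM in WT cells, 3 separate ranges with the 5-FU res libraries highest. ABCC4 rose in HCT116 5-FU res cells by a log2 fold change of 1.03 ± 0.08 (SE, adjusted p = 2.7e-07), a call lost under all 3 other scalings and after removal of the length trend. In SW480 the groups overlapped, with 11.2, 12.6 and 11.7 TPM in 5-FU res cells and 11.6, 10.5 and 11.7 TPM in OX res cells, against 12.0, 7.70 and 10.3 TPM in WT cells. In DLD-1 they overlapped too, with 43.9, 41.0 and 38.2 TPM in 5-FU res cells and 38.3, 41.8 and 41.7 TPM in OX res cells, against 41.1, 40.7 and 39.4 TPM in WT cells. The 5-FU res change in DLD-1 minus that in HCT116 was -1.01 (adjusted p = 1.4e-06).

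ABCC5 encodes MRP5, which shares with ABCC4 the export of nucleotide analogues and for which the monophosphate of 5-FU is a described substrate. ABCC5 was not called against WT in any line. In HCT116 it had 17.3, 15.4 and 16.2 TPM in 5-FU res cells and 22.2, 20.4 and 21.8 TPM in OX res cells, against 10.9, 10.9 and 12.8 TPM in WT cells, and both resistant groups lay above WT. In SW480 it had 37.7, 37.1 and 33.4 TPM in 5-FU res cells and 37.5, 35.1 and 40.4 TPM in OX res cells, against 32.9, 24.1 and 28.6 TPM in WT cells. In DLD-1 it had 38.2, 35.8 and 34.2 TPM in 5-FU res cells and 45.2, 47.1 and 44.5 TPM in OX res cells, against 43.3, 45.2 and 43.4 TPM in WT cells. The sign of the 5-FU res change differed, at 0.47 in HCT116, 0.34 in SW480 and -0.28 in DLD-1, none of them beyond the threshold.

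ABCC10 encodes MRP7, a broad-range pump whose substrates include taxanes. ABCC10 was not called either, but its libraries lay above WT in each of the 6 comparisons. It had 20.8, 18.3 and 17.6 TPM in 5-FU res cells and 20.3, 17.8 and 23.2 TPM in OX res cells, against 13.4, 12.3 and 12.9 TPM in WT cells in HCT116. In SW480 it had 13.5, 13.6 and 13.9 TPM in 5-FU res cells and 12.7, 13.9 and 13.1 TPM in OX res cells, against 9.17, 7.11 and 9.41 TPM in WT cells. In DLD-1 it had 18.0, 16.4 and 15.7 TPM in 5-FU res cells and 17.3, 16.1 and 13.7 TPM in OX res cells, against 11.0, 12.1 and 11.5 TPM in WT cells. Its log2 fold changes against WT lay between 0.41 and 0.63, each at an adjusted p of at most 0.0024. Relative to the median gene they ranged from 0.02 to 0.52. ABCC6, which supports ATP release in the liver, was not called against WT and is uncertain because near-identical pseudogene copies share its reads. Its single libraries ranged from 0.102 to 2.83 TPM in HCT116 and from 2.29 to 6.28 TPM in SW480, and its 5-FU res change in HCT116 minus that in SW480 was -1.14 (adjusted p = 0.0012). With a pseudocount of 0.1 TPM it was called in HCT116, at -1.55 in 5-FU res cells and 1.29 in OX res cells.

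**Figure D2:**
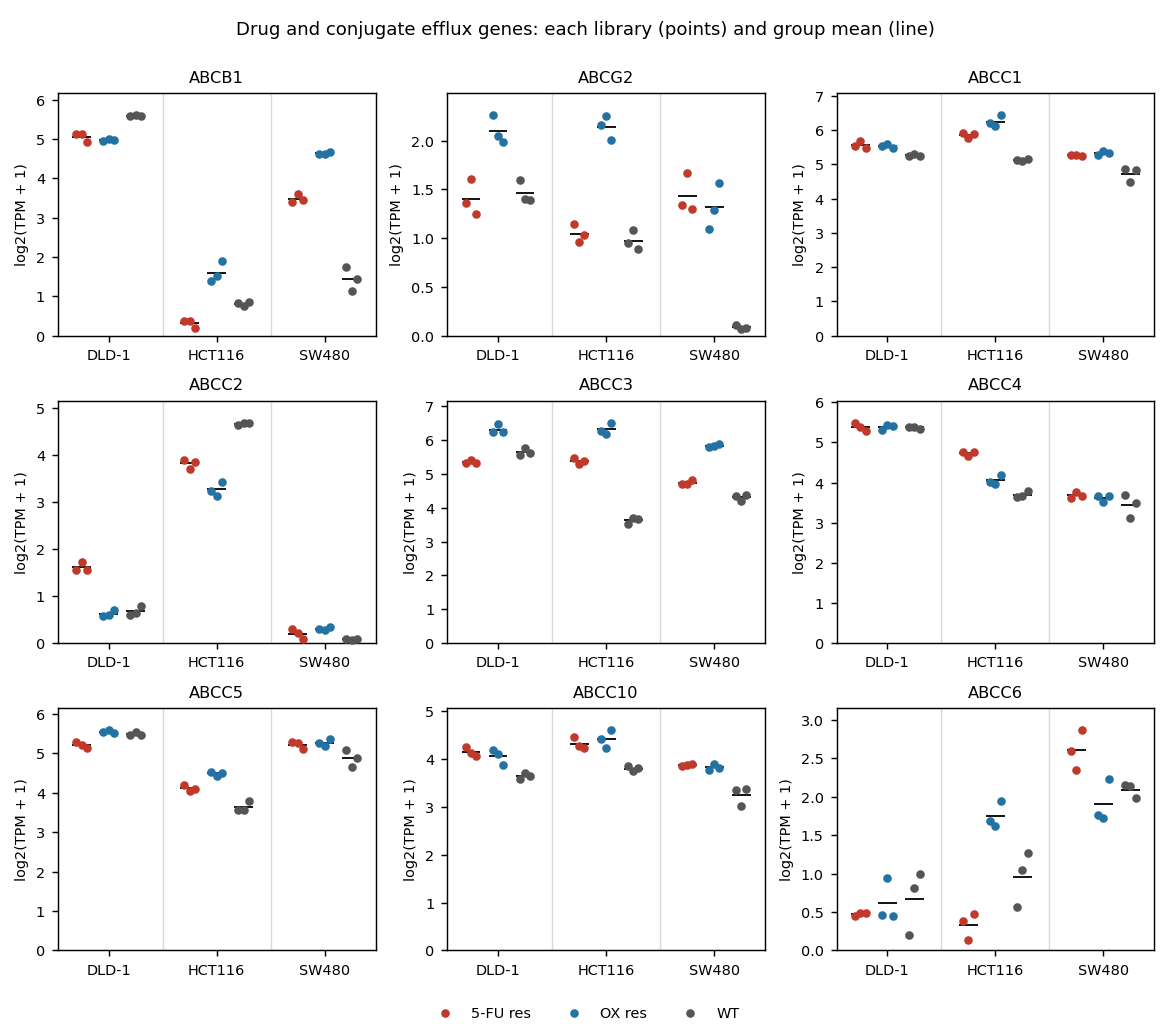
The 9 reported efflux genes in every library, as log2(TPM + 1), by line and group (5-FU res, OX res, WT from left to right), with a line at the mean of each group (n = 3). ABCB1 in SW480 stands at 23.4 to 24.4 TPM in OX res and at 1.20 to 2.34 TPM in WT libraries, while ABCC3 in HCT116 stands at 71.4 to 90.4 TPM in OX res and at 10.5 to 12.0 TPM in WT libraries.

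Summed over the 12 efflux genes, HCT116 had 174 ± 10.2 TPM in 5-FU res cells and 229 ± 24.8 TPM in OX res cells, against 109 ± 3.68 TPM in WT cells. SW480 had 142 ± 1.78 TPM in 5-FU res cells and 186 ± 5.82 TPM in OX res cells, against 96.8 ± 13.0 TPM in WT cells. DLD-1 had 217 ± 11.1 TPM in 5-FU res cells and 261 ± 12.8 TPM in OX res cells, against 233 ± 6.45 TPM in WT cells. The sums of resistant libraries lay above those of WT without overlap in HCT116 and SW480. In DLD-1 they did not overlap with WT (228.9 to 240.4 TPM) either. There the OX res sums lay above it, at 251.8 to 275.3 TPM, and the 5-FU res sums under it, at 204.0 to 223.7 TPM. By role, 2 of 9 tested efflux genes were higher in HCT116 5-FU res cells (all genes 11.6%), 3 were higher and 1 was lower of 9 in HCT116 OX res cells (all genes 28.5% and 4.83%), 2 of 8 were higher in SW480 5-FU res cells (all genes 18.3%) and 3 of 8 in SW480 OX res cells (all genes 13.7%). With the members that had 1 TPM in all 3 WT libraries these became 2 of 6, 2 higher and 1 lower of 6, 1 of 7 and 2 of 7.

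The change against WT was compared between lines for the 31 members. Of them, 1 was above and 9 were below the thresholds for 5-FU res cells in HCT116 minus SW480 (all genes 5.56% and 14.3%), 2 and 5 in DLD-1 minus HCT116 (all genes 5.13% and 13.4%), and 1 and 9 in DLD-1 minus SW480 (all genes 3.5% and 20%). For OX res cells the counts were 4 and 3 in HCT116 minus SW480 (all genes 12.4% and 7.13%), 2 and 7 in DLD-1 minus HCT116 (all genes 6.58% and 22.5%), and 1 and 4 in DLD-1 minus SW480 (all genes 3.45% and 11%).

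By role, the lipid transporters held the largest group of called changes against WT. This ranking did not hold among members that had 1 TPM in all 3 WT libraries, where the efflux genes had more. In SW480 5-FU res cells the 6 reported members of this list were called higher (all genes 18.3%), but ABCA1 was reported there only through its 5-FU res libraries, and 3 of the 6 had 1 TPM in all 3 WT libraries. Of these 6 calls, those of ABCA3 and ABCG1 were kept under all 3 other scalings, but neither gene had 1 TPM in all 3 WT libraries. In SW480 OX res cells 2 of 6 rose (all genes 13.7%), and 1 of the 3 that had 1 TPM in all 3 WT libraries. In HCT116 OX res cells 4 of 7 rose (all genes 28.5%), and in HCT116 5-FU res cells 2 of 7 (all genes 11.6%), which became 2 of 4 and 1 of 4 with the members that had 1 TPM in all 3 WT libraries.

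ABCA1, the exporter of cholesterol and phospholipid to apolipoprotein A-I, had the lowest WT levels of them in HCT116 and SW480. In HCT116, ABCA1 had 2.46, 1.49 and 1.87 TPM in 5-FU res cells and 5.98, 5.19 and 7.23 TPM in OX res cells, against 0.120, 0.0836 and 0.0909 TPM in WT cells. It rose in HCT116 5-FU res cells by a log2 fold change of 1.41 ± 0.14 (SE, adjusted p = 3e-06) and in OX res cells by a log2 fold change of 2.69 ± 0.14 (SE, adjusted p = 5.3e-09), and the 5-FU res call was lost after removal of the length trend. ABCA1 was reported in HCT116 only through resistant libraries, so these changes lean on the filter and are given as a description. In SW480, ABCA1 had 1.67, 2.14 and 1.61 TPM in 5-FU res cells and 0.546, 0.489 and 0.521 TPM in OX res cells, against 0.0955, 0.0526 and 0.0577 TPM in WT cells. Only the 5-FU res libraries passed 1 TPM and so brought ABCA1 into the SW480 test, so its log2 fold change there, 1.39, is given as a description. It was under the threshold with the FPKM as deposited. In SW480 OX res cells every library lay above WT at a log2 fold change of 0.51, under the threshold, which it passed at 1.88 with a pseudocount of 0.1 TPM. ABCA1 was not reported in DLD-1, where it ranged from 0.0596 to 0.189 TPM.

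ABCG1, which passes cholesterol to mature high-density lipoprotein and is controlled by the same oxysterol receptors as ABCA1, rose in 1 group. In SW480, ABCG1 had 9.31, 9.99 and 8.52 TPM in 5-FU res cells and 0.493, 0.407 and 0.345 TPM in OX res cells, against 1.36, 1.28 and 0.759 TPM in WT cells. It rose in SW480 5-FU res cells by a log2 fold change of 2.28 ± 0.13 (SE, adjusted p = 8.4e-08), and its log2 fold change in OX res cells was -0.58, which passed the threshold at -1.23 with a pseudocount of 0.1 TPM. Between the derivatives, ABCG1 was higher in SW480 5-FU res than in OX res cells by a log2 fold change of 2.86. Without its 5-FU res libraries ABCG1 would not have been reported in SW480, so these changes lean on the filter and are given as a description. In DLD-1 it had 6.52, 7.06 and 5.32 TPM in 5-FU res cells and 5.18, 3.95 and 4.49 TPM in OX res cells, against 8.16, 6.45 and 6.20 TPM in WT cells and was not called, and in HCT116 it was not reported, at 0 to 0.392 TPM. ABCG4, its relative in brain, was reported in HCT116 alone, with 1.01, 0.918 and 1.13 TPM in 5-FU res cells and 5.46, 5.41 and 6.28 TPM in OX res cells, against 1.57, 1.63 and 1.54 TPM in WT cells. ABCG4 rose in HCT116 OX res cells by 1.38 on the log2 scale, a call lost under all 3 other scalings.

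ABCA3, the phospholipid transporter of lamellar bodies, rose in 3 groups. In HCT116, ABCA3 had 3.42, 3.59 and 3.88 TPM in 5-FU res cells and 12.5, 11.5 and 16.2 TPM in OX res cells, against 2.52, 2.86 and 2.76 TPM in WT cells, and rose in OX res cells by a log2 fold change of 1.94 ± 0.12 (SE, adjusted p = 1.7e-08). In SW480, ABCA3 had 6.83, 5.55 and 5.67 TPM in 5-FU res cells and 3.37, 3.74 and 3.41 TPM in OX res cells, against 1.05, 0.826 and 0.868 TPM in WT cells, and rose by 1.87 in 5-FU res cells and by 1.24 in OX res cells on the log2 scale. The OX res call in SW480 was lost under all 3 other scalings and the others were kept. In DLD-1, ABCA3 had 3.45, 3.58 and 3.21 TPM in 5-FU res cells and 5.98, 5.22 and 5.89 TPM in OX res cells, against 5.34, 6.13 and 5.35 TPM in WT cells, with the 5-FU res libraries lowest and not called.

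ABCA5, a lysosomal member of the same subfamily, had 1.39, 1.53 and 1.43 TPM in 5-FU res cells and 6.73, 6.49 and 8.37 TPM in OX res cells, against 0.705, 0.620 and 0.769 TPM in WT cells in HCT116. It rose in HCT116 OX res cells by a log2 fold change of 2.27 ± 0.11 (SE, adjusted p = 3.2e-09). ABCA5 was reported in HCT116 only through resistant libraries, so this change leans on the filter and is given as a description. In SW480, ABCA5 had 6.11, 6.27 and 5.92 TPM in 5-FU res cells and 5.41, 4.16 and 4.83 TPM in OX res cells, against 2.26, 1.37 and 1.85 TPM in WT cells, with rises of 1.34 in 5-FU res cells and 1.04 in OX res cells that were lost under all 3 other scalings. The OX res call was also lost without SW480 OX res library 1 (0.97) or WT library 2 (0.92). ABCA5 in DLD-1 had 0.682, 0.904 and 0.626 TPM in 5-FU res cells and 2.38, 1.86 and 1.51 TPM in OX res cells, against 0.986, 1.11 and 0.712 TPM in WT cells and was not called.

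ABCA2, an endolysosomal sterol transporter, had its highest libraries in 5-FU res cells of both HCT116 and SW480. In HCT116, ABCA2 had 56.7, 48.2 and 49.7 TPM in 5-FU res cells and 28.6, 24.9 and 35.0 TPM in OX res cells, against 26.4, 23.2 and 25.8 TPM in WT cells. In SW480, ABCA2 had 25.3, 23.5 and 25.1 TPM in 5-FU res cells and 13.3, 15.2 and 12.3 TPM in OX res cells, against 8.46, 7.29 and 8.21 TPM in WT cells. It rose in HCT116 5-FU res cells by 1.01 on the log2 scale, a call lost under all 3 other scalings and without 5-FU res library 1 (0.94) or WT library 2 (0.95). It rose in SW480 5-FU res cells by 1.51, a call lost with quantile normalization (0.97). In DLD-1 it had 18.9, 22.1 and 19.1 TPM in 5-FU res cells and 28.1, 30.1 and 26.0 TPM in OX res cells, against 30.6, 34.9 and 30.2 TPM in WT cells, with the 5-FU res libraries lowest and not called.

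ABCA7, which also exports phospholipid, had 8.49, 8.48 and 9.17 TPM in 5-FU res cells and 7.39, 9.51 and 8.53 TPM in OX res cells, against 3.66, 3.73 and 3.98 TPM in WT cells in SW480. It rose in 5-FU res cells by 1.02, a call lost under all 3 other scalings and without 5-FU res library 3 (0.99). Its log2 fold change in SW480 OX res cells, 0.98, was under the threshold and passed it without OX res library 1 (1.06) or WT library 3 (1.01). In HCT116, ABCA7 had 14.6, 12.5 and 12.6 TPM in 5-FU res cells and 38.0, 30.6 and 42.4 TPM in OX res cells, against 18.5, 18.0 and 17.9 TPM in WT cells and was not called against WT, at 0.98 in OX res cells, which passed the threshold without OX res library 2 (1.11). In DLD-1, ABCA7 had 20.7 to 27.4 TPM in single libraries and was not called. ABCA12, a lipid transporter of the epidermis, was reported in HCT116 and DLD-1, at 0.970 to 4.25 TPM in single libraries, and was not called. With a pseudocount of 0.1 TPM it was called higher in HCT116 OX res cells, at 1.37, and so were ABCA7 in HCT116 OX res (1.01) and SW480 OX res cells (1.13) and ABCC9 in SW480 5-FU res cells (1.06).

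**Figure D3:**
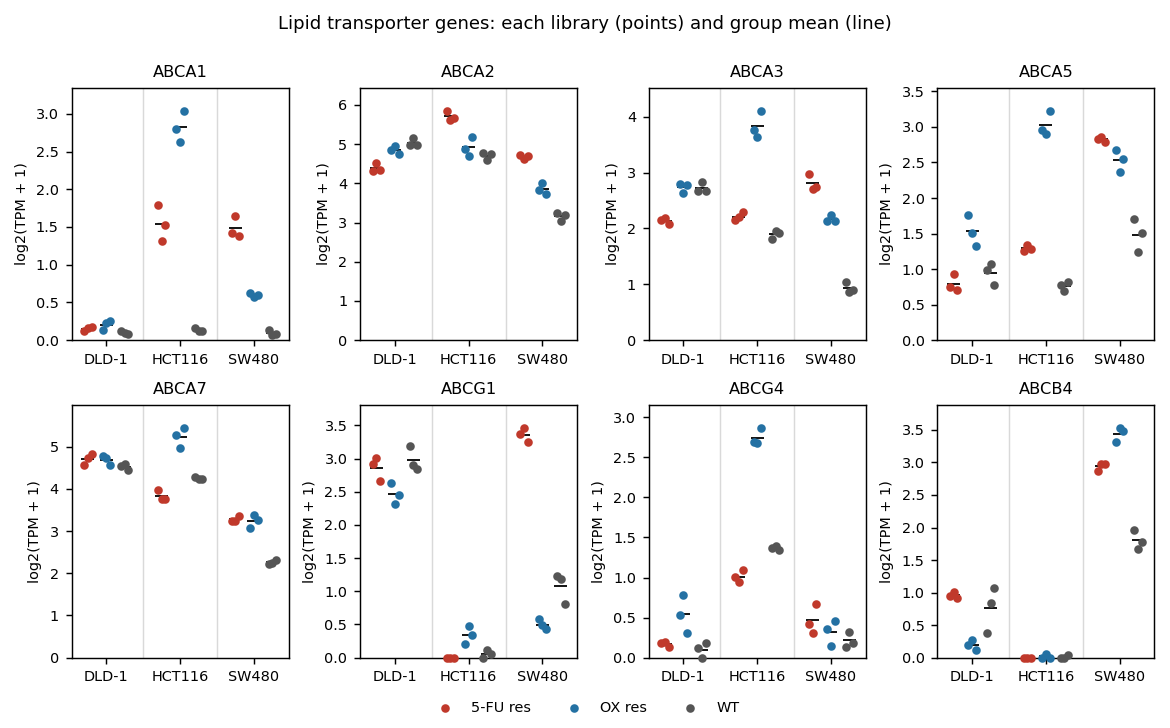
Lipid transporter genes in every library, as log2(TPM + 1), by line and group (5-FU res, OX res, WT from left to right), with a line at the mean of each group (n = 3). ABCG1 in SW480 stands at 8.52 to 9.99 TPM in 5-FU res and at 0.759 to 1.36 TPM in WT libraries, and ABCA1 in HCT116 at 5.19 to 7.23 TPM in OX res and at 0.0836 to 0.120 TPM in WT libraries.

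Among the mitochondrial members 1 change against WT was called. ABCB6 had 12.7, 10.9 and 9.66 TPM in 5-FU res cells and 42.6, 37.6 and 43.1 TPM in OX res cells, against 23.3, 22.8 and 23.4 TPM in WT cells in HCT116. It fell in HCT116 5-FU res cells by a log2 fold change of -1.01 ± 0.09 (SE, adjusted p = 9.1e-07), a call lost without 5-FU res library 3 (log2 fold change -0.92), while its log2 fold change in OX res cells was 0.80. In SW480, ABCB6 had 11.8, 12.0 and 11.0 TPM in 5-FU res cells and 27.6, 28.3 and 27.1 TPM in OX res cells, against 21.1, 20.2 and 20.4 TPM in WT cells, with log2 fold changes of -0.78 in 5-FU res cells and 0.41 in OX res cells that were not called. The 5-FU res value passed the threshold at -1.16 with the FPKM as deposited, -1.26 with median of ratios and -1.27 with quantile normalization. In both lines the 5-FU res libraries lay under WT and the OX res libraries above it. In DLD-1, ABCB6 had 2.76, 3.99 and 3.28 TPM in 5-FU res cells and 3.43, 4.52 and 4.23 TPM in OX res cells, against 2.57, 2.82 and 2.27 TPM in WT cells. The potassium channel subunit ABCB8 and the haem-linked ABCB10 were not called, within log2 fold changes of -0.55 (ABCB8, SW480 OX res) and 0.74 (ABCB8, DLD-1 OX res). Under other scalings ABCB10 was called lower in HCT116 OX res cells, at -1.04 with median of ratios and -1.16 with quantile normalization, and ABCB8 in SW480 OX res cells, at -1.02 with quantile normalization.

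ABCD3, a peroxisomal half-transporter of fatty acids, was among the more abundant members, at 23.7 to 83.4 TPM in single libraries, and was not called. Of the lysosomal genes, ABCD4, needed for cobalamin release, had 48.4, 50.6 and 48.9 TPM in 5-FU res cells and 25.8, 30.3 and 26.5 TPM in OX res cells, against 18.8, 19.6 and 19.5 TPM in WT cells in SW480 and rose in 5-FU res cells by 1.31. In HCT116 and DLD-1, ABCD4 ranged from 15.9 to 31.1 TPM and was not called. The ABCD4 call was lost under all 3 other scalings. ABCB9, a lysosomal peptide transporter, was not called.

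ABCC9, the sulphonylurea receptor SUR2 of potassium channels, rose in 3 groups. In HCT116 it had 3.75, 3.21 and 3.67 TPM in 5-FU res cells and 3.02, 2.89 and 3.61 TPM in OX res cells, against 0.872, 0.887 and 1.16 TPM in WT cells, and in SW480 it had 9.20, 9.20 and 10.4 TPM in 5-FU res cells and 11.4, 9.06 and 10.8 TPM in OX res cells, against 5.55, 3.72 and 4.56 TPM in WT cells. The rises were 1.20 (5-FU res) and 1.08 (OX res) in HCT116 and 1.03 (OX res) in SW480, and the SW480 call was lost without SW480 OX res library 1 (0.97) or WT library 2 (0.92). The log2 fold change of ABCC9 in SW480 5-FU res cells, 0.93, passed the threshold without WT library 1 (1.05). In DLD-1, ABCC9 ranged from 8.73 to 13.1 TPM and was not called. Each of the 3 calls was lost under at least 2 of the 3 other scalings. The 4 members with no membrane part, ABCE1, which splits ribosomes, and ABCF1, ABCF2 and ABCF3, were among the most abundant and none was called. Their log2 fold changes against WT lay between -0.56 (ABCF2, HCT116 OX res) and 0.51 (ABCF3, HCT116 OX res). In HCT116 OX res cells ABCF2 was called lower with the FPKM as deposited (-1.11) and with median of ratios (-1.22), and ABCE1 with median of ratios (-1.10).

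The derivatives of 1 line were also compared with each other directly. HCT116 5-FU res against OX res cells gave 0 members higher and 10 lower, beside 5.19% and 17.3% of all genes, and at an adjusted p under 0.05 alone 6 members were higher and 21 lower (all genes 20.4% and 56.7%). The lower members included ABCA1, ABCA3, ABCA5, ABCA7, ABCB1, ABCB6, ABCC6, ABCG2 and ABCG4, from -1.81 for ABCB6 to -1.09 for ABCG2. The median gene had a log2 fold change of -0.34. The 0 higher and 10 lower became 2 higher and 7 lower with median-of-ratios scaling, 1 and 5 with the FPKM as deposited and 3 and 6 with quantile normalization, and 0 and 5 of 22 with the members that had 1 TPM in all 3 WT libraries. ABCC3, at -0.94, passed the threshold without OX res library 2 (-1.01). SW480 5-FU res against OX res cells gave 1 higher, ABCG1, and 3 lower, beside 6.49% and 4.61% of all genes, and at the adjusted p alone 10 and 6 (all genes 34.3% and 27.3%). The 3 lower were ABCB6 at -1.19, ABCB1 at -1.15 and ABCC3 at -1.10. ABCB6 was thus lower in 5-FU res than in OX res cells of both HCT116 and SW480. ABCB1 was called lower in both too, but in HCT116 it was reported only through its OX res libraries. ABCC6 in HCT116 likewise needed its OX res libraries to be reported, and ABCG1 in SW480 its 5-FU res libraries. DLD-1 gave 0 of 27 (all genes 2.55% and 5.97%), with 18 members at an unadjusted p under 0.05, 5 higher and 12 lower at the adjusted p alone (all genes 18.3% and 44.6%) and the outermost values 0.98 for ABCC2 and -0.96 for ABCC3. ABCC2 passed the threshold without DLD-1 5-FU res library 1 (1.01), 5-FU res library 3 (1.01) or OX res library 3 (1.02), and ABCC3 without OX res library 1 or OX res library 3 (-1.001 and -1.003).

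Genes that the family works with were read from lists. Of the 3 family members with other symbols, TAP1, which feeds peptides to MHC class I, rose in HCT116 OX res cells by 1.60, and its partner TAP2 fell in HCT116 5-FU res cells by -1.01 on the log2 scale. CFTR, the chloride channel of crypt epithelium, was tested in DLD-1, where it fell by -1.54 in 5-FU res cells and by -1.22 in OX res cells. Of 16 listed transcription factors known to control ABC genes, 2 of 13 tested rose in HCT116 5-FU res cells (all genes 11.6%), 5 rose and 1 fell of 13 in HCT116 OX res cells (all genes 28.5% and 4.83%), 4 of 14 rose in SW480 5-FU res cells (all genes 18.3%) and 1 of 14 in SW480 OX res cells (all genes 13.7%). In DLD-1 0 of 14 rose in 5-FU res cells and 1 in OX res cells (all genes 2.12% and 2.7%). AHR, the dioxin receptor, rose in 4 of the 6 comparisons, by 1.01 (5-FU res) and 1.62 (OX res) in HCT116, 1.39 (5-FU res) in SW480 and 1.37 (OX res) in DLD-1. The oxysterol receptor genes NR1H2 and NR1H3, which act on ABCA1 and ABCG1, were called in 1 comparison each. NR1H2 rose in HCT116 OX res cells (1.16, or 0.56 relative to the median gene), and NR1H3 was higher in SW480 5-FU res than in OX res cells (1.05). NFE2L2, the oxidative stress regulator, rose in HCT116 OX res cells (1.15, or 0.56 relative to the median gene). YBX1, described as an activator of ABCB1, fell there (-1.20, or -1.80 relative to the median gene).

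A list of genes that make glutathione or join it to substrates, most of them glutathione transferases, was read because ABCC1, ABCC2 and ABCC3 export such conjugates. In HCT116 OX res cells 6 of 14 tested rose and 0 fell (all genes 28.5% and 4.83%), and in SW480 OX res cells 5 of 14 rose and 1 fell (all genes 13.7% and 1.22%). In DLD-1 OX res cells 0 of 15 rose or fell (all genes 2.7% and 0.913%). At an adjusted p under 0.05 alone 6 were higher and 2 lower there (all genes 38.7% and 11.2%). In 5-FU res cells 0 rose and 2 of 14 fell in HCT116 (all genes 11.6% and 3.82%), 0 rose and 1 of 14 fell in SW480 (all genes 18.3% and 2.85%), and 3 of 15 rose in DLD-1 (all genes 2.12%). SLC7A11, the cystine importer, rose by 2.83 (HCT116 OX res), 3.08 (SW480 OX res) and 1.16 (DLD-1 5-FU res). GCLC, the catalytic subunit of glutathione synthesis, rose by 1.03 (HCT116 OX res) and 1.03 (SW480 OX res), or 0.43 and 0.66 relative to the median gene. GSTP1, a glutathione transferase, fell in SW480 OX res cells by -1.17. Among 5 other efflux and vault genes, MVP, the major vault protein, rose in SW480 by 3.66 in 5-FU res cells and 3.01 in OX res cells, and the copper exporter ATP7A by 1.55 and 1.60. In HCT116 none of the 4 tested genes of this list was called in either comparison with WT.

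**Figure D4:**
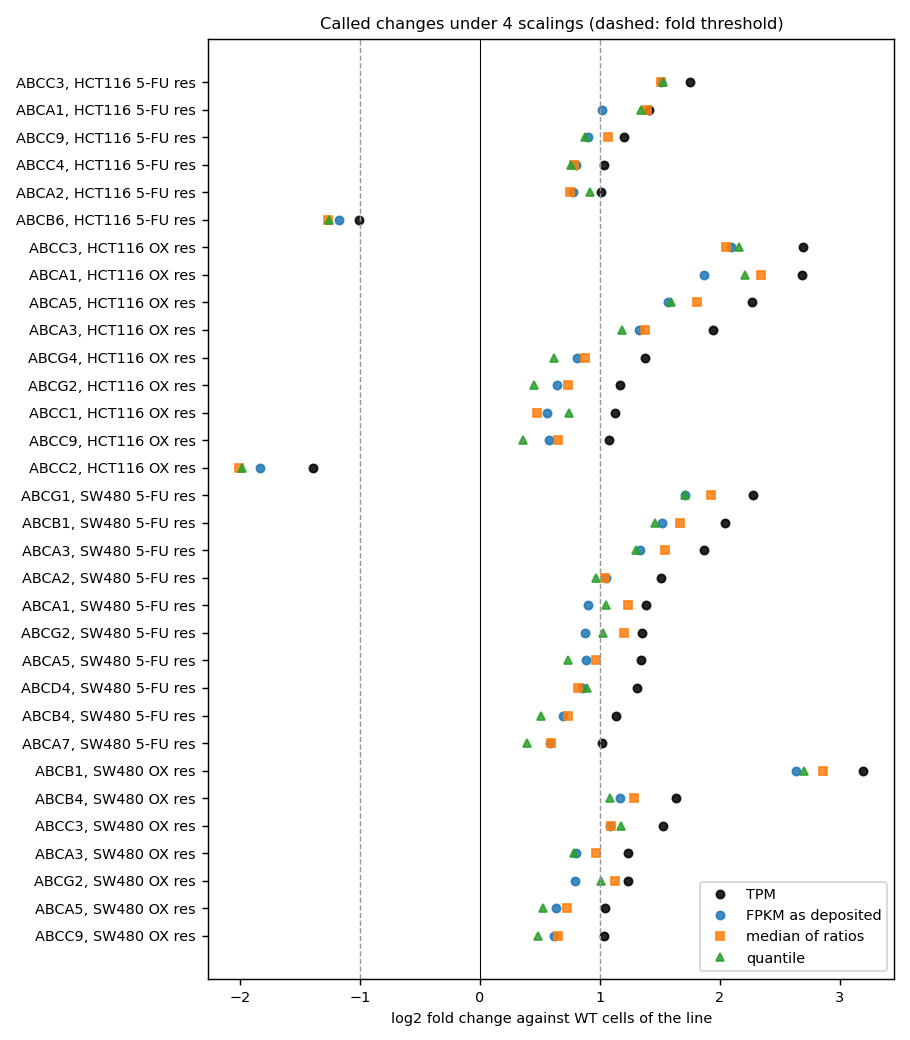
Of the called changes against WT, 32 are drawn under TPM, the FPKM as deposited, median-of-ratios scaling and quantile normalization. Each row is 1 gene in 1 resistant group, the x axis is the log2 fold change against WT cells of the line, and dashed lines mark the threshold of 1 in either direction. TPM gives the rightmost point in all 32 rows, and no point crosses 0.

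Transcript length moved with several results. Members are long, with 0 of 29 among the 25% shortest of the genes tested in HCT116 and 13 among the 25% longest. The median log2 fold change in HCT116 5-FU res cells was 0.57 among the longest and -0.19 among the shortest of these, and in SW480 OX res cells it was 0.70 and 0.05. With the trend on length removed, 22 of the 33 changes kept their call, and 12 kept it in every setting that tested them. These 12 were ABCC3 in both HCT116 groups and SW480 OX res cells, ABCB1 in both SW480 groups, ABCB4 in SW480 OX res cells, ABCA1, ABCA3, ABCA5 and ABCC2 in HCT116 OX res cells, and ABCA3 and ABCG1 in SW480 5-FU res cells. The setting with a mean of at least 5 TPM did not test ABCA1 and ABCA5 in HCT116 or ABCA3 and ABCG1 in SW480. ABCA1 and ABCA5 were also reported in HCT116 only through resistant libraries. ABCA3 and ABCG1 would not have been reported in SW480 on its WT libraries alone.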

How the data were processed

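Total RNA for the 27 libraries was extracted with the miRNeasy kit and made into stranded mRNA libraries with the TruSeq kit, which were read on a DNBSEQ sequencer. The authors trimmed the reads, aligned them to hg19 with TopHat2 2.1.1 (Bowtie2 2.2.8, SAMtools 0.1.18) and deposited FPKM per gene symbol. The processing notes name Cuffdiff 2.2.1 for this step and the methods name Cufflinks. Neither the annotation nor the options nor the number of reads is given in the sources used here. FPKM sums ranged from 451767 to 804635 per library, so each was scaled to TPM.

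Members with at least 1 TPM in at least 3 of the 9 libraries of a line were reported. Values per library were given for the efflux pumps and for members called against WT, and the others were given as ranges. A few genes are not reported here and are left out of the figures, while counts and sums include them. The members, role lists and other gene lists were chosen with earlier results of these data known. The differences between lines were to be given for members called in opposite directions under the same drug, of which there were 0 (1 with a pseudocount of 0.1 TPM, ABCB1 under 5-FU), so those of the efflux pumps were chosen after their values were seen.

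For each line, limma 3.58.1 in R 4.3.3 (lmFit, eBayes with trend, 2-sided) was fitted on log2(TPM + 1) of all genes passing the filter, with Benjamini-Hochberg adjustment over all genes tested. WT cells of different lines and the differences between lines were tested in 1 fit of all 27 libraries. Alternatives were the FPKM as deposited, median-of-ratios scaling, quantile normalization, a pseudocount of 0.1 TPM, no filter, a mean of at least 5 TPM, no trend, only the groups compared, the replicate block, removal of the trend on transcript length and each library left out, and, chosen after seeing the data, only members with 1 TPM in all 3 WT libraries. The fits were tested on simulated data. Libraries of a group correlated at r of 0.991 to 0.995 and none were identical. Figures were drawn with Python 3.11.15 and matplotlib 3.10.9.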

Additional observations from a re-analysis of the deposited data

Results flagged for a closer look

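For 6 efflux genes the change against WT differed between lines beyond the thresholds, in a test of the difference itself (limma on all 27 libraries, adjusted p under 0.05 and a difference beyond 1 on the log2 scale). The 16 differences are given as the first-named line minus the second. For 5-FU res cells in HCT116 minus SW480 they were -2.53 (adjusted p = 1.4e-11) for ABCB1, 1.32 (adjusted p = 1.1e-09) for ABCC3, -1.14 (adjusted p = 0.0012) for ABCC6 and -1.28 (adjusted p = 1e-06) for ABCG2, beside 5.56% of all genes above and 14.3% below the thresholds. For 5-FU res cells in DLD-1 minus HCT116 they were 1.77 (adjusted p = 2.5e-11) for ABCC2, -2.06 (adjusted p = 1.1e-12) for ABCC3 and -1.01 (adjusted p = 1.4e-06) for ABCC4 (all genes 5.13% and 13.4%). For 5-FU res cells in DLD-1 minus SW480 they were -2.57 (adjusted p = 1e-11) for ABCB1 and -1.41 (adjusted p = 2.1e-07) for ABCG2 (all genes 3.5% and 20%).

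For OX res cells in HCT116 minus SW480 the differences were -2.41 (adjusted p = 3.2e-11) for ABCB1, -1.62 (adjusted p = 6.7e-11) for ABCC2 and 1.16 (adjusted p = 9.2e-09) for ABCC3 (all genes 12.4% and 7.13%). ABCC2 was not reported in SW480, where it ranged from 0.0412 to 0.270 TPM and could hardly fall. In DLD-1 minus HCT116 they were -1.40 (adjusted p = 1.7e-07) for ABCB1, 1.34 (adjusted p = 1.1e-09) for ABCC2 and -2.03 (adjusted p = 4.8e-13) for ABCC3 (all genes 6.58% and 22.5%), and in DLD-1 minus SW480 ABCB1 had -3.81 (adjusted p = 3.4e-14) (all genes 3.45% and 11%). Differences that involve DLD-1 cannot be told apart from the library run. ABCB1 in HCT116, ABCC2 in DLD-1 and ABCG2 in SW480 were reported there only through resistant libraries, with no WT library at 1 TPM. ABCC6 in HCT116 would not have been reported without its OX res libraries. Differences that involve these genes in these lines are given as a description.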

How the results depend on the processing

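No called change of a member reversed its sign in any setting. The number of members called moved by more than 1.5 times in these cases, and where no cause is named the cause was not tested. With the FPKM as deposited it was 6 for HCT116 5-FU res against OX res, 5 for SW480 5-FU res and 3 for SW480 OX res. Median-of-ratios scaling gave 7 for SW480 5-FU res, 4 for SW480 OX res and 1 for DLD-1 5-FU res against OX res, and quantile normalization gave 6 for SW480 5-FU res and 1 for DLD-1 5-FU res against OX res. A mean of at least 5 TPM, which tests fewer members, gave 4 for HCT116 OX res, 4 for HCT116 5-FU res against OX res, 6 for SW480 5-FU res and 4 for SW480 OX res. Removing the length trend gave 2 for HCT116 5-FU res and 4 for SW480 OX res. A pseudocount of 0.1 TPM gave 1 for DLD-1 5-FU res, 2 for DLD-1 5-FU res against OX res, and, for the differences between lines under OX, 9 for DLD-1 minus SW480 and 11 for HCT116 minus SW480. With no threshold on the fold the counts for 5-FU res, OX res and 5-FU res against OX res were 24, 26 and 27 in HCT116, 22, 22 and 16 in SW480 and 12, 13 and 17 in DLD-1. Leaving out single libraries moved the count for DLD-1 5-FU res against OX res between 0 and 2. No source says that replicate numbers pair the libraries. Same-numbered libraries had correlations of deviations between -0.20 and 0.22 in HCT116, -0.16 and 0.17 in SW480 and -0.10 and 0.14 in DLD-1. For HCT116 OX res with WT they were 0.09, 0.22 and 0.17, and those of unlike numbers were all negative. For HCT116 5-FU res with OX res they were -0.20, 0.14 and -0.15. With the replicate block the counts of each comparison within a line stayed as they were, HCT116 WT against SW480 WT gave 11 in place of 10 and DLD-1 WT against SW480 WT 16 in place of 17, where ABCD3 lost its call.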
